A study of Homo sapiens with 16 samples.

Results

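Insulin and insulin-like growth factor (IGF) signalling was followed through 10 genes in human melanoma cells taken off inhibitors of the MAPK pathway. The genes were the receptors IGF1R and INSR, the adaptors IRS1 and IRS2, the PI3K inhibitor PIK3IP1, and the secreted IGF-binding proteins IGFBP2, IGFBP3, IGFBP4, IGFBP5 and IGFBP7. They were chosen by symbol, with earlier results of these data known, and all 10 were found among the 30813 genes of the deposited count table. Total RNA had been sequenced in 16 libraries from 2 drug-resistant derivatives of established melanoma lines with activated BRAF, 8 libraries each. DR A375, called A375 here, was kept on the BRAF inhibitor dabrafenib at 0.5 µM plus the MEK inhibitor trametinib at 0.05 µM, or was moved to DMSO for 6, 24 or 48 h. 451Lu BR, called 451Lu here, was kept on dabrafenib at 1 µM, or was moved to DMSO for 24, 72 or 120 h. The source name of the 451Lu samples also gives resistance to trametinib, which the treatment notes do not give to that line. All 8 groups had 2 libraries and shared DMEM with 9% serum, which itself carries growth factors. Each line is a single resistant derivative. Whether paired libraries come from different cultures is not stated, so the p-values cover no more than the spread within these pairs, which may be technical. No group was kept on drug to each later time, so time in culture and withdrawal cannot be told apart.

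IGF1R and INSR are receptor tyrosine kinases that bind IGFs and insulin. They phosphorylate the adaptors IRS1 and IRS2, which recruit PI3K and so activate AKT and mTOR. AKT also keeps FOXO factors out of the nucleus, which holds down the genes that these factors switch on. The IGF-binding proteins hold IGFs outside the cell and release them when proteases cut the carrier, and several also act without IGFs. In melanoma treated with BRAF inhibitors, IGF1R and PI3K signalling are known as a route by which cells keep growing, and the adaptors are known targets of feedback from mTOR and FOXO.

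Library totals ran from 9714190 to 16691725 counts. Genes of the mitochondrial genome took 4.81% to 6.11% of counts on drug and 2.60% to 5.09% off drug, so this share moved with withdrawal in both lines. All 10 melanocyte lineage markers were above 3 counts summed over the 2 libraries of every group, except TYRP1, which had 0 counts in 451Lu at 120 h. Their summed level went from 5427 to 5568 CPM on drug to 1063 to 1156 CPM at 48 h in A375, and from 10720 to 11310 CPM to 1024 to 1169 CPM at 120 h in 451Lu. Most of the on-drug sum was DCT in A375 (mean 3169 CPM, then 98.7) and PMEL in 451Lu (mean 8798 CPM, then 398). MC1R rose instead, from 6.99 to 17.6 CPM in A375 and from 24.6 to 45.5 CPM in 451Lu. PAX3 rose from 25.4 to 34.2 CPM in 451Lu. The other markers had lower means at the last time, with SOX10 in A375 going only from 650 to 568 CPM. Levels are CPM, read counts scaled by library size, on each line's own scale unless a joint scale is named. Of the 5 endothelial markers 4 were in the table, with a summed level in 451Lu of 0.904 to 1.05 CPM on drug and 112 CPM in both libraries at 120 h. PECAM1 alone made up 110.7 CPM of that, while TEK was at 0 counts in every 451Lu group. The 6 fibroblast and mural markers summed to 132.9 to 146 CPM on drug and 62.86 to 82.79 CPM at 120 h in 451Lu, where LUM went from 4629 to 133 counts over the pair. The other 5 had more counts at 120 h than on drug. PDGFRB went from 10 to 859, PDGFRA from 13 to 450, COL1A1 from 10 to 176, DCN from 3 to 94 and COL1A2 from 0 to 8. The part of these markers in the results below was not tested. Fewer cells of a kind and less RNA per cell cannot be told apart in such bulk libraries.

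After withdrawal IGFBP3 RNA rose in both lines at every time, and from 6 h in A375 and 72 h in 451Lu it was the most abundant of the 10 per kilobase. The adaptors did not move together: IRS1 fell in A375 and rose in 451Lu, while IRS2 fell at all 3 times in 451Lu and at 6 and 48 h in A375. INSR fell at 6 h in A375 and then rose above its on-drug level, and it rose at all 3 times in 451Lu. IGFBP5 and IGFBP7 rose more than 10-fold in 451Lu at 120 h. PIK3IP1, at low counts, fell in A375 and rose at 72 and 120 h in 451Lu.

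Changes are log2 fold changes with their standard errors (SE), and adjusted p is the Benjamini-Hochberg value of edgeR's quasi-likelihood F test over all genes tested, with a threshold of 0.05. Most genes of these cells passed that test, so the counts below are set against the share of all genes. In A375 at 6 h 7 of the 9 genes that could be tested passed, 3 higher and 4 lower. Of all genes tested 73.3% passed there, 35.1% higher and 38.1% lower. At 24 h 7 of 9 passed, 5 higher and 2 lower, against 72.6% of all genes (36.2% higher, 36.3% lower). At 48 h 8 of 9 passed, 5 higher and 3 lower, against 72.6% (36.6% higher, 36% lower). In 451Lu at 24 h 6 of 9 passed, 5 higher and 1 lower, against 54.1% (29.2% higher, 24.9% lower). At 72 h 7 of 9 passed, 6 higher and 1 lower, against 67.7% (34.2% higher, 33.4% lower). At 120 h all 9 tested genes passed, 8 higher and 1 lower, against 73.8% (37.3% higher, 36.6% lower). In A375 the shares passing in either direction were near the background. The shares called higher at 24 and 48 h were above it, a difference that was not tested. Because the genes were chosen with earlier results of these data known, shares above the background in either line are no independent evidence about the set. When a change of more than 1.5-fold was required, 4, 5 and 5 of 9 passed in A375 against 31.6%, 29.5% and 31.3% of all genes. In 451Lu 5, 7 and 7 of 9 passed that test, against 17.1%, 31.7% and 41.1%. IGFBP7 was too low to test in A375 and IGFBP4 too low in 451Lu, and both are given by their counts. The comparisons of 1 line share its on-drug libraries, so their values stand side by side and are not independent of each other.

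**Figure D1:**
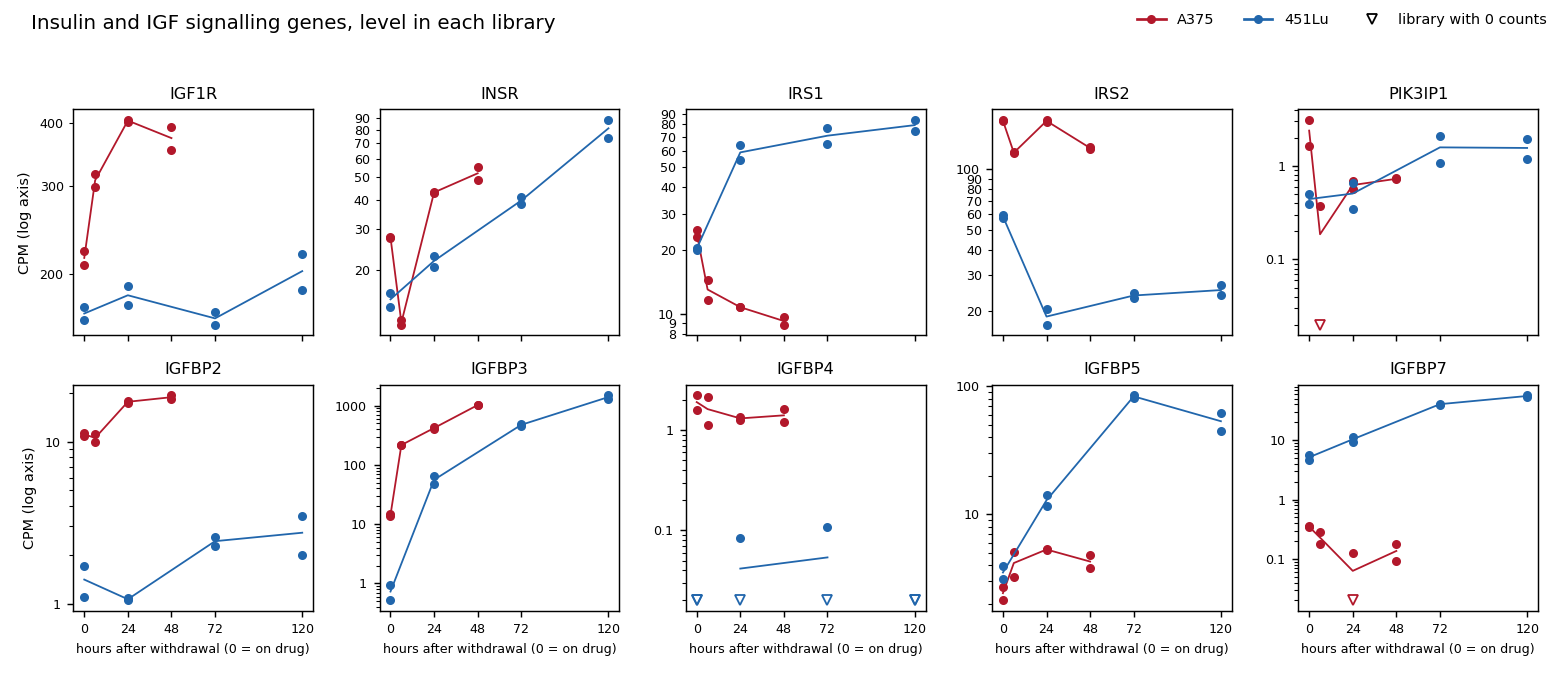
Level of each of the 10 genes in every library (CPM on each line's own scale, log axis) against hours after withdrawal, with 0 for cells on drug. Points are libraries, lines join the group means (means of 0 are left out), and open triangles, drawn at the bottom of the panel, mark libraries with 0 counts. IGFBP3 climbs from 14.3 to 1021 CPM in A375 and from 0.728 to 1395 CPM in 451Lu, while IRS1 falls in A375 and rises in 451Lu.

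The receptors differed in the size and the timing of their change. IGF1R, which binds IGF1 and IGF2 and spans chr15:98648971-98964530 in GRCh38, stood at 207.6 and 222.3 CPM in A375 on drug. It was at 317.2 and 297.8 CPM at 6 h, 406.7 and 403.2 CPM at 24 h, and 392.7 and 354.2 CPM at 48 h. All 6 off-drug libraries were above both on-drug libraries, with the highest at 24 h. IGF1R rose by 0.52 ± 0.05 on the log2 scale at 6 h (adjusted p 3.10e-11), 0.92 ± 0.05 at 24 h and 0.80 ± 0.05 at 48 h. In 451Lu IGF1R was at 161.1 and 171.5 CPM on drug, 172.7 and 189.2 at 24 h, 157.8 and 167.3 at 72 h, and 185.7 and 218.7 at 120 h. The 72 h libraries overlapped those on drug, and only the 120 h change passed the test, at 0.28 ± 0.07 (adjusted p 0.00292). That call ended without replicate 2 of the 120 h group, at 0.12 with an adjusted p of 0.183.

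INSR, the insulin receptor (chr19:7112255-7294034), was at 27.85 and 27.44 CPM in A375 on drug and at 11.65 and 12.19 CPM at 6 h. It then stood at 42.93 and 43.21 CPM at 24 h and at 55.3 and 48.71 CPM at 48 h. The groups did not overlap, with 6 h lowest and 48 h highest. Against on drug INSR changed by -1.21 ± 0.10 at 6 h (adjusted p 8.24e-13), 0.64 ± 0.07 at 24 h and 0.91 ± 0.08 at 48 h. Between 6 and 24 h INSR rose by 1.85 ± 0.10, in a comparison where 6 of the 9 genes passed, 5 higher and 1 lower, against 69.8% of all genes (35.5% higher, 34.2% lower). Of these 2 passed the 1.5-fold test, against 28.2%. Between 24 and 48 h it rose by 0.27 ± 0.07 (adjusted p 0.00367), a call that ended without replicate 1 of the 48 h group (0.18, adjusted p 0.123) and with DESeq2 (adjusted p 0.0669). There 3 of the 9 genes passed, INSR and IGFBP3 higher and IRS2 lower, against 29.9% of all genes (14.2% higher, 15.7% lower). IGFBP3 alone passed the 1.5-fold test there, as did 1.49% of all genes.

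In 451Lu INSR had 13.96 and 16.03 CPM on drug, 20.71 and 23.1 at 24 h, 41.04 and 38.48 at 72 h, and 88.33 and 73.81 at 120 h. Each later group lay above the one before it with no overlap. The rise over on drug was 0.54 ± 0.12 at 24 h (adjusted p 0.00103), 1.40 ± 0.11 at 72 h and 2.43 ± 0.10 at 120 h, which is 5.40-fold. From 24 to 72 h INSR rose by 0.86 ± 0.11 and from 72 to 120 h by 1.03 ± 0.10. In the first of these comparisons 8 of 9 genes passed, all higher, against 51.4% of all genes (25.9% higher, 25.5% lower), and 4 passed the 1.5-fold test against 12.8%. In the second 5 of 9 passed, 4 higher and 1 lower, against 32.7% (16.6% higher, 16.1% lower), and 2 passed the 1.5-fold test against 3.97%.

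The adaptors behaved differently in the 2 lines. IRS1, the docking protein that binds PI3K once the receptors phosphorylate it (chr2:226731317-226799759), was at 23.13 and 25.11 CPM in A375 on drug. Its libraries had 14.5 and 11.54 CPM at 6 h, 10.75 and 10.7 at 24 h, and 9.586 and 8.824 at 48 h. Every off-drug library was below both on-drug libraries. IRS1 changed by -0.88 ± 0.11 at 6 h (adjusted p 6.06e-09), -1.17 ± 0.11 at 24 h and -1.39 ± 0.12 at 48 h. The further step of -0.28 ± 0.13 from 6 to 24 h was at the threshold (adjusted p 0.0495). Without replicate 1 of the 6 h group it was -0.11 with an adjusted p of 0.578.

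IRS1 in 451Lu went the other way. It had 20.61 and 20.17 CPM on drug, 63.45 and 54.19 at 24 h, 76.82 and 64.55 at 72 h, and 84.32 and 74.45 at 120 h. All 6 off-drug libraries were above those on drug, and the 72 and 120 h pairs overlapped. IRS1 rose by 1.53 ± 0.10 at 24 h (adjusted p 2.58e-09), 1.79 ± 0.10 at 72 h and 1.96 ± 0.10 at 120 h. From 24 to 72 h it rose by 0.26 ± 0.10 (adjusted p 0.0324), a call that ended without replicate 2 of the 24 h group (0.15) and without replicate 1 of the 72 h group (0.13).

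IRS2, the second adaptor of this family (chr13:109752698-109786568), was at 174.8 and 172.5 CPM in A375 on drug and at 120.1 and 121.3 CPM at 6 h. It was back at 170.6 and 175.8 CPM at 24 h, and had 129.1 and 125.5 CPM at 48 h. The on-drug libraries lay within the range of the 24 h pair, while those at 6 and 48 h lay below. IRS2 changed by -0.52 ± 0.05 at 6 h (adjusted p 1.61e-11), -0.00 ± 0.05 at 24 h (adjusted p 0.935) and -0.45 ± 0.05 at 48 h (adjusted p 6.01e-10). In 451Lu IRS2 had 57.57 and 59.35 CPM on drug, 20.43 and 17.04 at 24 h, 24.39 and 23.22 at 72 h, and 26.82 and 23.81 at 120 h. Every off-drug library was far below the on-drug pair. The fall was largest at 24 h, -1.63 ± 0.09 (adjusted p 2.90e-10), and was -1.30 ± 0.09 at 72 h and -1.20 ± 0.09 at 120 h. IRS2 was the 1 gene of the 10 called lower in 451Lu against on drug, at each of the 3 times.

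**Figure D2:**
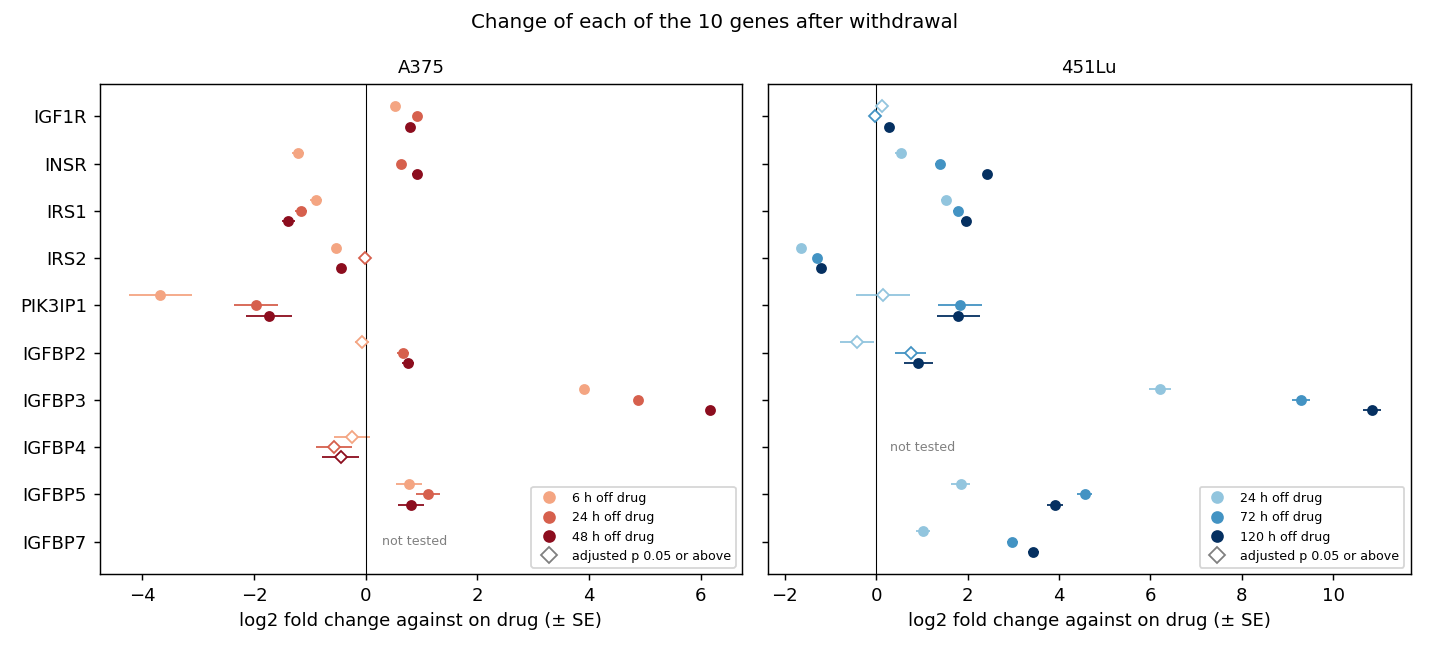
Log2 fold change of each gene against cells on drug (x axis, with different ranges for the 2 lines), at 3 times in A375 and 3 in 451Lu. Points are fitted values, bars are ± 1 SE where longer than the symbol, and open diamonds did not pass the test. INSR in A375 lies at -1.21 at 6 h and at 0.91 at 48 h, and IRS1 lies left of 0 in A375 and right of 0 in 451Lu.

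PIK3IP1 binds the catalytic subunit of PI3K and restrains it. The gene (chr22:31281593-31292534) had few counts, 53 and 24 in A375 on drug, 0 and 4 at 6 h, 9 and 8 at 24 h, and 8 and 8 at 48 h. All 6 off-drug libraries had fewer than the on-drug pair. From the summed counts the on-drug level was 13.4 times that at 6 h (95% Clopper-Pearson interval 5.04 to 50.5, which covers counting error only). The fitted log2 change was -3.67 ± 0.57 at 6 h (adjusted p 6.37e-07), -1.97 ± 0.40 at 24 h and -1.73 ± 0.41 at 48 h. The 6 h value became -8.01 without replicate 2 of that group, which leaves a library with 0 counts. In 451Lu the counts were 6 and 9 on drug, 5 and 8 at 24 h, 10 and 22 at 72 h, and 24 and 13 at 120 h. After scaling, the pairs at 72 and 120 h lay above both on-drug libraries, at 1.07 to 2.08 CPM against 0.388 and 0.497 CPM. PIK3IP1 had a log2 change of 0.14 ± 0.59 at 24 h, which did not pass, and rose by 1.83 ± 0.48 at 72 h (adjusted p 0.00315) and by 1.80 ± 0.47 at 120 h (adjusted p 0.00245). Both calls rested on a single library. At 72 h the change was 1.22 without replicate 2 (adjusted p 0.123), and at 120 h it was 1.34 without replicate 1 (adjusted p 0.0667).

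IGFBP3, IGFBP5 and IRS1 were the 3 genes whose promoter window held 1 of the motifs searched, so these windows are shown. Each gives the 250 bases before the start site in RefSeq on GRCh38.p14, 5′ to 3′ on the gene's minus strand, with the ETS core letters CCGGAA or their reverse complement TTCCGG in capitals. The windows are chr7:45921273-45921522 for IGFBP3, chr2:216695550-216695799 for IGFBP5 and chr2:226799821-226800070 for IRS1. The IGFBP3 window lies inside the gene span of the count table (chr7:45912245-45921874), because the RefSeq start lies within that span. The other 2 windows lie outside the spans of their genes.
IGFBP3: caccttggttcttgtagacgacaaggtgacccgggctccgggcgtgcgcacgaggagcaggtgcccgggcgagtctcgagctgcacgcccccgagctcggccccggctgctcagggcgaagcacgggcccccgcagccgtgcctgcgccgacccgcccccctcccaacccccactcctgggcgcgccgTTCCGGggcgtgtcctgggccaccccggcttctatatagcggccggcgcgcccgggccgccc
IGFBP5: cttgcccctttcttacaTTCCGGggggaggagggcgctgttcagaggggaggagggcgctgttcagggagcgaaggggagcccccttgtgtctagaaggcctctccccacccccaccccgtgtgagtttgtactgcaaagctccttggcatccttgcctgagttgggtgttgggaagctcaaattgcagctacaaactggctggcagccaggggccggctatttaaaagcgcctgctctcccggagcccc
IRS1: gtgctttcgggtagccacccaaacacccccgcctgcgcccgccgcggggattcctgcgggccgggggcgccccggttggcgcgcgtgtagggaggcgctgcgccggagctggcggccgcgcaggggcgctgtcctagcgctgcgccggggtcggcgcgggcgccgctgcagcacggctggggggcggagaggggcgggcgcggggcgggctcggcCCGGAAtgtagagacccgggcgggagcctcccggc
ETS factors include nuclear effectors of ERK, the kinase at the end of the inhibited pathway. The first base of the match lay 62 bases upstream of the RefSeq start in IGFBP3, 233 in IGFBP5 and 35 in IRS1. The ETS letters were found, on either strand, in 14.8% of 27305 promoters of this length. Windows were found for 9 of the 10 genes, and IGFBP7 had none. The forkhead letters GTAAACA (2.98% of promoters), the AP-1 letters TGANTCA (6.60%) and the E-box CACGTG (6.49%) occurred in none of the 9 windows. GC content was 76.0% in the IGFBP3 window, 61.2% in that of IGFBP5 and 80.8% in that of IRS1, against a median of 58% over all promoters. These matches describe letters only, and binding was not measured.

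Among the binding proteins IGFBP3 moved most. IGFBP3, the main IGF carrier of blood (chr7:45912245-45921874), had 14.87 and 13.72 CPM in A375 on drug. It stood at 215.8 and 217 CPM at 6 h, 427.8 and 409.6 at 24 h, and 1021 and 1022 at 48 h. Each later pair was above the one before. IGFBP3 rose by 3.92 ± 0.06 at 6 h (adjusted p 3.78e-33), 4.87 ± 0.06 at 24 h and 6.15 ± 0.06 at 48 h, which is 71.2-fold. By size of change IGFBP3 ranked 199 of 14449 genes at 6 h and 124 at 48 h. In 451Lu IGFBP3 began near the limit of detection, with 8 and 17 counts or 0.517 and 0.940 CPM on drug. Its libraries had 46.72 and 65.32 CPM at 24 h, 456.5 and 491.7 at 72 h, and 1503 and 1286 at 120 h. Again no group overlapped another. The rise was 6.21 ± 0.24 at 24 h (adjusted p 2.05e-12), 9.30 ± 0.20 at 72 h and 10.85 ± 0.20 at 120 h. At 120 h it ranked 15 of 13851 genes. From 72 to 120 h IGFBP3 still rose by 1.56 ± 0.10, and in A375 from 24 to 48 h by 1.29 ± 0.04.

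IGFBP5, a binding protein that also attaches to extracellular matrix (chr2:216672105-216695525), was low in A375, with 2.714 and 2.126 CPM on drug. It had 5.071 and 3.257 CPM at 6 h, 5.405 and 5.22 at 24 h, and 3.779 and 4.772 at 48 h. All off-drug libraries were above the on-drug pair, while the 6 h and 48 h pairs overlapped. IGFBP5 rose by 0.77 ± 0.24 at 6 h (adjusted p 0.00444), 1.12 ± 0.21 at 24 h (adjusted p 2.13e-05) and 0.81 ± 0.24 at 48 h (adjusted p 0.00301). The 6 h call ended without replicate 1 of that group (0.42, adjusted p 0.231), and the 48 h call without replicate 2 (0.63, adjusted p 0.0542). In 451Lu IGFBP5 had 3.101 and 3.924 CPM on drug, 11.57 and 14.21 at 24 h, 81.76 and 85.49 at 72 h, and 44.65 and 62.22 at 120 h. It was highest at 72 h, and no 2 groups overlapped. The rise was 1.85 ± 0.21 at 24 h (adjusted p 1.53e-06), 4.56 ± 0.17 at 72 h and 3.91 ± 0.17 at 120 h. From 72 to 120 h IGFBP5 fell by 0.65 on the log2 scale (SE 0.12, adjusted p 5.23e-04), the 1 lower call among the 10 genes in that comparison.

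IGFBP7, a secreted protein that binds IGFs weakly (chr4:57030773-57110385), had few counts in A375, with 6 and 5 counts on drug, 2 and 3 at 6 h, 2 and 0 at 24 h, and 1 and 2 at 48 h. The on-drug level was 1.53 times that at 6 h (95% counting interval 0.491 to 5.63), 4.81 times that at 24 h (1.05 to 44.7) and 2.55 times that at 48 h (0.675 to 14.3). In 451Lu it had 5.621 and 4.697 CPM on drug, 11.5 and 9.225 at 24 h, 39.97 and 41.04 at 72 h, and 57.5 and 53.74 at 120 h. Each pair lay above the one before. IGFBP7 rose by 1.02 ± 0.15 at 24 h (adjusted p 1.98e-05), 2.98 ± 0.12 at 72 h and 3.44 ± 0.12 at 120 h. PECAM1, an endothelial marker, moved over the same groups from 0 to 40, 443 and 2593 counts summed over each pair. TEK, from the same marker list, had 0 counts in all of them, and PECAM1 made up most of that list's sum at 120 h. The part of these markers in this result was not tested. The exons of IGFBP7 share 270 bases with POLR2B on the opposite strand, out of the 1930 exon bases of IGFBP7, and the strand used in counting is not given. POLR2B had 48933 counts over the 16 libraries and IGFBP7 2579, so reads in that stretch cannot be assigned.

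IGFBP2 and IGFBP4 moved least. IGFBP2 (chr2:216632828-216664436), a circulating carrier of both IGFs, had 11.33 and 10.84 CPM in A375 on drug, 11.12 and 9.957 at 6 h, 17.85 and 17.37 at 24 h, and 18.25 and 19.36 at 48 h. The 6 h pair overlapped the on-drug pair and the later pairs lay above it. The log2 change was -0.07 ± 0.12 at 6 h (adjusted p 0.604), 0.67 ± 0.11 at 24 h (adjusted p 9.44e-07) and 0.76 ± 0.11 at 48 h. In 451Lu IGFBP2 had 1.098 and 1.713 CPM on drug, 1.046 and 1.08 at 24 h, 2.578 and 2.275 at 72 h, and 2.008 and 3.467 at 120 h. The 24 h pair lay just below the on-drug pair and the later pairs above it. Only the 120 h change passed, at 0.92 ± 0.32 (adjusted p 0.0161). It did not pass with DESeq2 (adjusted p 0.0814), without replicate 1 on drug (0.65, adjusted p 0.137) or without replicate 2 at 120 h (0.45, adjusted p 0.321). The 72 h change of 0.76 ± 0.34 had an adjusted p of 0.0571.

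IGFBP4 (chr17:40443461-40457731), an inhibitory carrier cut by the protease PAPPA, had 2.242 and 1.578 CPM in A375 on drug, 2.135 and 1.117 at 6 h, 1.257 and 1.369 at 24 h, and 1.198 and 1.621 at 48 h. The 6 h and 48 h pairs overlapped the on-drug pair, and the 24 h pair lay below it. The log2 changes of -0.24 ± 0.32, -0.56 ± 0.32 and -0.45 ± 0.33 did not pass (adjusted p 0.511, 0.113 and 0.227). In 451Lu IGFBP4 had 1 count in each of 2 libraries and 0 in the other 6.

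Levels of different genes were set side by side as CPM per kilobase of exon, on a scale shared by both lines. In A375 on drug IRS2 led at 20, followed by IGF1R at 14.4, IGFBP3 at 2.92, INSR at 2.47, IRS1 at 2.27 and IGFBP2 at 2.18. In 451Lu on drug the order was IGF1R at 12.6, IRS2 at 7.56, IGFBP7 at 2.81, IRS1 at 2.16 and INSR at 1.51, with IGFBP3 at 0.168. IGFBP3 led at all 3 times off drug in A375, at 45.5, 87.8 and 214, while IGF1R stayed second at 21.2, 27.8 and 25.6. In 451Lu IGFBP3 stood at 12.6 at 24 h, next to IGF1R at 13.4, and led at 72 h (109) and 120 h (325). At 120 h IGFBP7 followed at 30.6, then IGF1R at 15.4, IGFBP5 at 8.81, IRS1 at 8.48, INSR at 8.25 and IRS2 at 3.31. Library values per kilobase overlapped between IRS1 and IGFBP2 in A375 on drug, between IGF1R and IGFBP3 in 451Lu at 24 h, and among IGFBP5, IRS1 and INSR in 451Lu at 120 h, so the order of these neighbours is within their spread. Exon lengths are from GENCODE and may differ from those counted.

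The lines were compared in a joint fit of the 16 libraries, in which line and drug treatment cannot be told apart. On drug 9 of the 10 genes differed, 7 higher and 2 lower in A375, where 77.2% of all genes differed (37.9% higher, 39.3% lower). Of these 6 passed the 1.5-fold test, against 45.6% of all genes. IRS1 was the exception, at 22.6 ± 1.27 CPM in A375 and 21.5 ± 0.379 CPM in 451Lu (SD, n = 2, joint scale), a log2 difference of 0.07 ± 0.11 (adjusted p 0.558). IGFBP3 was 16.9-fold higher in A375 (log2 4.08 ± 0.28) and IGFBP2 6.87-fold (2.78 ± 0.19). IRS2 was 2.64-fold higher in A375 (1.40 ± 0.06), INSR 1.63-fold (0.71 ± 0.10) and PIK3IP1 4.76-fold (2.25 ± 0.45). IGFBP4, with 61 counts in A375 and 0 in 451Lu, was at least 19.2-fold higher in A375 against a floor of 3 counts over the pair (joint scale). IGFBP7 was 16.1-fold lower in A375 (-4.01 ± 0.30). The differences of IGF1R (0.20 ± 0.07, adjusted p 0.00874) and IGFBP5 (-0.70 ± 0.28, adjusted p 0.0237) ended in some settings. IGF1R lost its call without replicate 2 of A375 on drug (adjusted p 0.108) or replicate 1 of 451Lu on drug (adjusted p 0.105), and IGFBP5 without replicate 2 of A375 (adjusted p 0.132) or of 451Lu (adjusted p 0.194).

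At 24 h, the time both lines share, the change since on drug differed between the lines for 7 of the 10 genes, 3 higher and 4 lower in A375, where 49.4% of all genes differed (27.4% higher, 22% lower). Of these 4 passed the 1.5-fold test, against 17.6%. IRS1 differed by -2.63 ± 0.16 (A375 minus 451Lu, adjusted p 3.17e-13). IRS2 differed by 1.69 ± 0.10 (adjusted p 1.11e-13), and IGF1R by 0.86 ± 0.09 (adjusted p 2.50e-08). IRS1 thus fell in A375 and rose in 451Lu from on-drug levels whose difference did not pass the test. The 24 h change of IGFBP3 was smaller in A375 by 1.27 ± 0.36 (adjusted p 0.00486), a call that ended without replicate 1 of 451Lu on drug (-0.94, adjusted p 0.0898). IGFBP2 differed by 1.16 ± 0.35 (adjusted p 0.00831), and by 0.79 without replicate 2 of 451Lu on drug (adjusted p 0.167). PIK3IP1 differed by -2.04 ± 0.83 (adjusted p 0.0430), a call lost with DESeq2 (adjusted p 0.0692) and without any of 6 libraries. IGFBP7 differed by -3.08 ± 0.85 (adjusted p 0.00381). That value rests on 2 counts in A375 at 24 h and was -6.11 without replicate 1 of that group. INSR, at 0.17 ± 0.14 (adjusted p 0.363), IGFBP5, at -0.67 ± 0.35 (adjusted p 0.118), and IGFBP4 did not pass.

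Within a line the genes that moved together can be described over its 8 libraries, which share their times. In 451Lu IRS1 and IRS2 ran opposite to each other (Pearson r -0.866), and in A375 r was 0.484. IRS1 and IGFBP3 had an r of -0.984 in A375 and 0.96 in 451Lu. Over 12814 genes tested in both lines, the gene with the highest mean r to IGFBP3 was BACH1 (0.997), then MRPS6 and C16orf52 (0.993 each). For INSR they were SESTD1 (0.985), SMIM14 (0.985) and PLEKHM3 (0.981), and for IRS1 OGFRL1 (0.976), MOB3A (0.962) and TSC22D1 (0.96). FBXW2 (0.961) was nearest to IGF1R, TCFL5 (0.966) to IRS2, LMBR1L (0.957) to IGFBP2 and MAN1B1-AS1 (0.938) to PIK3IP1. These values describe likeness in time course only.

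The rest of the pathway was read from 9 lists of 85 genes, 83 of them in the table, also chosen with earlier results known. In A375 53, 57 and 59 of 70 tested genes passed at 6, 24 and 48 h, and in 451Lu 54, 59 and 56 of 69 at 24, 72 and 120 h. The shares of all genes that passed are those given above, 73.3%, 72.6% and 72.6%, and 54.1%, 67.7% and 73.8%. The median log2 change of these genes was -0.08 at 48 h in A375, and 0.16 at 120 h in 451Lu, where the median over all genes was 0.00.

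The ligand IGF2 rose in 451Lu. It had 2 and 3 counts on drug, 14 and 14 at 24 h, 163 and 215 at 72 h, and 560 and 482 at 120 h. At 120 h its level of 44.5 ± 0.703 CPM (SD, n = 2) was 299 times that on drug (95% counting interval 128 to 922). In A375 IGF2 had 0 counts on drug and 3 and 3 at 48 h. IGF1 had 0 to 3 counts in every library, and INS was not matched in the table. Of the clearance receptors, LRP1, which takes up many ligands, fell by 0.59 on the log2 scale in A375 at 48 h (SE 0.05) and rose by 2.14 ± 0.07 in 451Lu at 120 h. IGF2R, which removes IGF2, fell by 0.58 (SE 0.04) and 0.38 (SE 0.06). IGFBP6, a carrier that prefers IGF2, rose by 1.42 ± 0.37 in A375 at 48 h and by 2.19 ± 0.19 in 451Lu at 120 h.

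Proteases and their inhibitors set how long a binding protein lasts. STC1, a stanniocalcin that blocks the IGFBP protease PAPPA, had 2 and 6 counts in A375 on drug and 15409 and 15909 at 48 h. In CPM it stood at 0.265 ± 0.208 on drug, 46.3 ± 1.74 at 6 h, 717 ± 16.9 at 24 h and 1426 ± 8.64 at 48 h (SD, n = 2). In 451Lu STC1 went from 2.87 ± 0.863 CPM on drug to 3701 ± 348 CPM at 120 h, a log2 change of 10.31 ± 0.19. HTRA1, a serine protease that cuts IGFBP5, fell by 0.81 (SE 0.08) in A375 and rose by 2.53 ± 0.15 in 451Lu at the last time. STC2 rose by 0.61 ± 0.11 and ADAM12, which cuts IGFBP3 and IGFBP5, fell by 0.99 (SE 0.16) in A375. PAPPA and PAPPA2 had too few counts to be tested in A375.

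**Figure D3:**
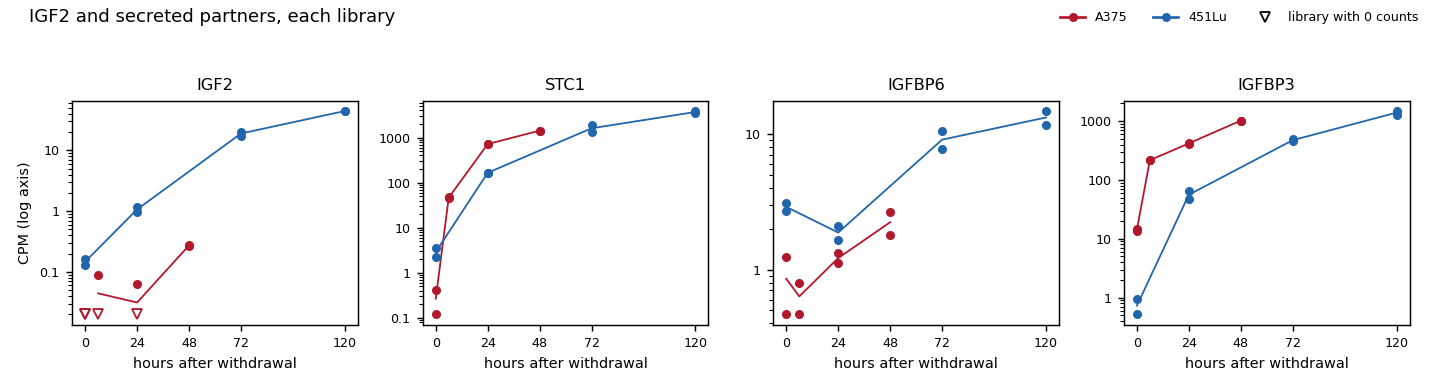
Level of IGF2, STC1, IGFBP6 and IGFBP3 in every library (CPM on each line's own scale, log axis) against hours after withdrawal, with 0 for cells on drug. Points are libraries, lines join group means, and open triangles mark libraries with 0 counts. IGF2 reaches 44.5 CPM in 451Lu at 120 h and stays under 0.28 CPM in A375, while STC1 and IGFBP3 rise in both lines.

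Of 15 tested adaptors and receptor-proximal regulators, 7 rose and 5 fell in A375 at 48 h, and 10 rose and 2 fell in 451Lu at 120 h. Of all genes tested, 36.6% rose and 36% fell in A375 at 48 h, and 37.3% rose and 36.6% fell in 451Lu at 120 h. SH2B3, an adaptor that dampens receptor signalling, rose by 2.94 ± 0.05 and 2.88 ± 0.06 and had its highest A375 level at 6 h, 810.3 ± 11.8 CPM against 60.1 ± 1.64 on drug (SD, n = 2). GAB1, a docking protein for PI3K, fell by 1.42 (SE 0.10) in A375 and by 0.57 (SE 0.13) in 451Lu. SOCS1, a feedback inhibitor, rose by 3.63 ± 0.42 in 451Lu, and PTPN1, a phosphatase that acts on INSR, by 1.12 ± 0.05 in A375. SOS2 fell by 0.62 (SE 0.10) in A375 and GRB10 by 0.18 (SE 0.06) in 451Lu.

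In the PI3K list of 16 tested genes, 5 rose and 6 fell in A375 at 48 h, and 7 rose and 7 fell in 451Lu at 120 h, where 72.6% and 73.8% of all genes changed. PIK3R3, a regulatory subunit of PI3K, fell by 2.66 (SE 0.09) in A375 and by 2.38 (SE 0.07) in 451Lu. INPP4B, a phosphatase of PI3K lipids, fell by 2.84 (SE 0.09) in 451Lu. PIK3CA, a catalytic subunit of PI3K, rose by 0.84 ± 0.07 in A375 and by 0.87 ± 0.08 in 451Lu. Of the TSC and mTOR genes, 5 rose and 9 fell of 15 in A375, and 3 rose and 6 fell of 14 in 451Lu, beside 36% and 36.6% of all genes that fell. TBC1D7, a subunit of the TSC complex, fell by 1.63 (SE 0.06) and 1.68 (SE 0.12). RICTOR, the scaffold of the mTOR complex that acts on AKT, rose by 1.97 ± 0.08 in 451Lu, with RPS6KB1 at 0.52 ± 0.08, and MLST8 fell by 0.92 (SE 0.07). In A375 EIF4E rose by 1.02 ± 0.06 and EIF4EBP1 by 0.88 ± 0.05, and MTOR fell by 0.85 (SE 0.05).

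FOXO factors and the genes that answer to them were listed because PI3K and AKT hold FOXO in check. FOXO1 was at 20.8 ± 0.0116 CPM on drug and 27.2 ± 1.74 at 48 h in A375, and at 2.96 ± 0.285 and 8.65 ± 1.27 at 120 h in 451Lu (SD, n = 2). FOXO3 fell by 0.84 (SE 0.08) in A375 at 6 h and by 0.35 (SE 0.07) at 48 h, and rose by 0.16 ± 0.07 in 451Lu at 120 h (adjusted p 0.0479). FOXO4 fell by 1.44 (SE 0.13) in A375 at 6 h and by 0.57 (SE 0.11) at 48 h, and rose by 0.76 ± 0.20 in 451Lu at 120 h. FOXO6 had 0 to 3 counts in every library. Of 13 tested FOXO-responsive genes 9 fell and 2 rose in A375 at 6 h, with a median log2 change of -1.42 against -0.06 over all genes, of which 38.1% fell and 35.1% rose. Among them KLHL24 fell by 4.24 (SE 0.14), TXNIP by 3.08 (SE 0.11) and CCNG2 by 2.88 (SE 0.23), examples taken after their values were seen. Between 6 and 24 h all 13 rose, with a median of 1.13 against 0.02 over all genes, of which 35.5% rose. At 24 h 7 were higher and 5 lower than on drug, where 36.2% of all genes were higher and 36.3% lower. At 48 h 7 rose and 5 fell, where 36.6% of all genes rose and 36% fell, with FBXO32 at 3.26 ± 0.06, GADD45A at 2.36 ± 0.08, SESN3 at -2.58 ± 0.06 and ERBB3 at -1.33 ± 0.05. In 451Lu at 120 h 6 rose and 5 fell of 13, where 37.3% of all genes rose and 36.6% fell, with CITED2 at 3.58 ± 0.15, ERBB3 at -1.75 ± 0.15 and SESN3 at -1.32 ± 0.12. The death ligand TNFSF10, or TRAIL, counted 0 in both on-drug libraries of 451Lu, then 581 and 429 at 120 h, at least 483-fold higher against a floor of 3 counts over the pair.

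**Figure D4:**
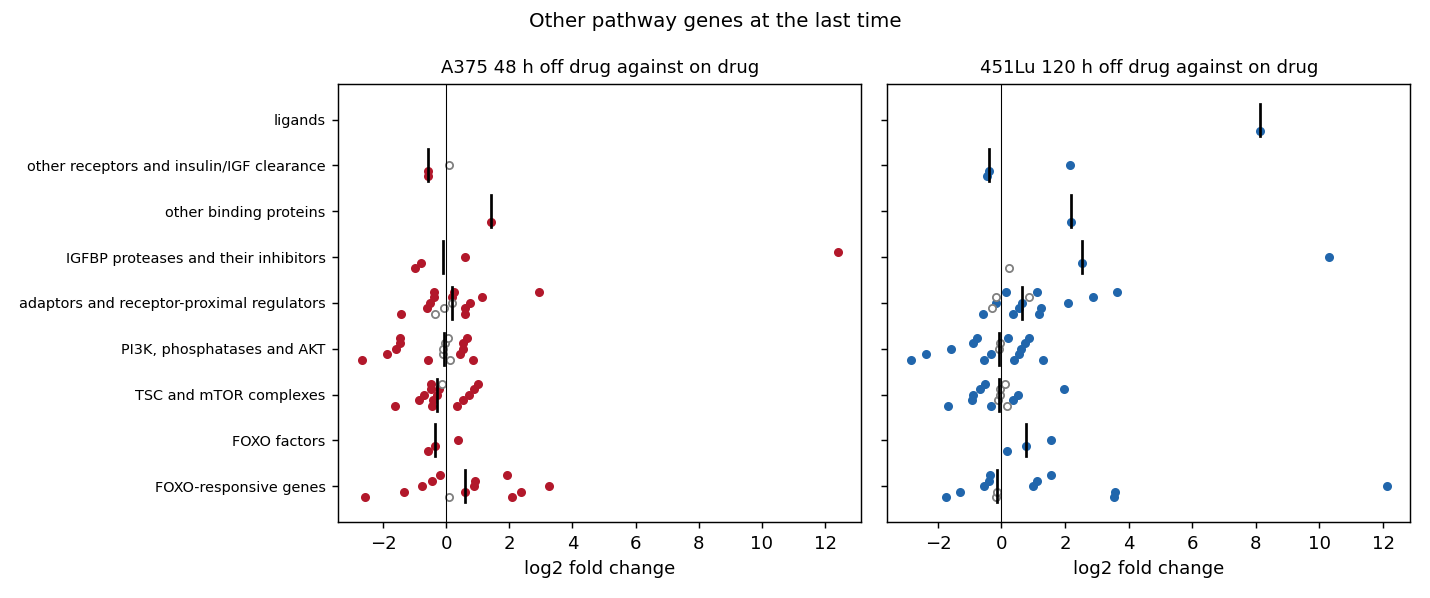
Log2 fold change at the last time against on drug (x axis) of each tested gene of the 9 pathway lists, in A375 at 48 h and in 451Lu at 120 h. Filled points passed the test, open points did not, and black bars are list medians. The far points are STC1 (12.40 in A375, 10.31 in 451Lu), IGF2 (8.13 in 451Lu) and TNFSF10 in 451Lu, whose fitted value depends on the prior count of the fit, as its on-drug libraries had 0 counts.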

How the data were processed

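Total RNA of 16 libraries had been sequenced, in 8 groups of 2 taken from the labels. Per the submitters' processing notes, the authors used TopHat2 2.1.0 and Bowtie 1.0.0 with the build GRCh38. The values are whole-number counts of reads per gene, deposited without normalization. The counter was not given in the sources used here, nor were its annotation release and strand setting. Each line was fitted alone (8 libraries, 1 factor) with edgeR 4.0.16 in R 4.3.3, using TMM scaling, filterByExpr (minimum count 10, minimum total 15) and the quasi-likelihood F test, over 14449 genes in A375 and 13851 in 451Lu. The line comparisons came from a joint fit of 15481 genes. The biological coefficient of variation was 3.19%, 4.98% and 4.15% in these fits. Each SE is the size of the fitted change over the root of its F statistic. TMM makes levels relative to the other genes, not amounts per cell. An exact permutation test of 2 against 2 libraries cannot give a p under 0.333. Alternatives were RLE size factors, no filter, DESeq2 1.42.0, a test against 1.5-fold, a replicate block and leaving out each library. Exon lengths came from GENCODE 29 and promoters from RefSeq.

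All 10 genes were named. From each pathway list, the 2 called genes with the largest rise and the 2 with the largest fall at each line's last time were named, plus ligands and FOXO factors by level, and 3 genes of highest likeness for each gene tested in both lines (the first alone is printed for some). Some genes that this rule names are not reported here. The genes and lists were chosen with earlier results of these data known.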

Additional observations from a re-analysis of the deposited data

Results flagged for a closer look

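The 24 h change differed between the lines by the test of the difference in the joint fit (log2, A375 minus 451Lu) for 7 of 10 genes. Of all genes 49.4% differed by that test. With a change of more than 1.5-fold required, 4 of the 10 passed, against 17.6% of all genes. IRS1 differed by -2.63, IRS2 by 1.69 and IGF1R by 0.86. IGFBP2 differed by 1.16 and IGFBP3 by -1.27, and each call ended without 1 of the 451Lu on-drug libraries. PIK3IP1 differed by -2.04, on counts of 24 or fewer in every library but 1 of the 8 compared. IGFBP7 differed by -3.08, on 2 counts in A375 at 24 h, so its size depends on the prior count of the fit. Line and drug treatment cannot be told apart in these differences.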

How the results depend on the processing

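Of 224 recomputed counts of calls 202 stayed within 1.5 times the reported count and 22 moved. Of 1030 recomputed changes of single genes 928 kept their direction and call, 73 lost the call, 11 gained one and 18 changed sign. Those 18 belong to 11 changes that passed the test neither as reported nor with the sign changed, so no change that passed reversed. Leaving out 1 library in turn, the log2 change of IGFBP2 in A375 at 6 h ran from -0.15 to 0.0068, IGFBP4 there from -0.78 to 0.15, and IRS2 at 24 h from -0.018 to 0.025. IGFBP4 ran from -0.71 to 0.22 between 6 and 24 h and from -0.13 to 0.31 between 24 and 48 h. In 451Lu PIK3IP1 at 24 h ran from -0.35 to 0.56 and IGF1R at 72 h from -0.11 to 0.0082. Between 72 and 120 h IGFBP2 ran from -0.28 to 0.50, IRS2 from -0.012 to 0.16 and PIK3IP1 from -0.45 to 0.54. IRS2 in A375 at 24 h was 0.015 with RLE size factors and 0.016 with DESeq2, and the on-drug difference of IRS1 was -0.012 with the replicate block. The test against 1.5-fold, which by its construction drops small changes, left 4 of the 9 tested genes called in A375 at 6 h and 5 at 48 h. It left 2 there between 6 and 24 h and 1 between 24 and 48 h. Of the 9 tested in 451Lu it left 4 between 24 and 72 h and 2 between 72 and 120 h. Of the 10 tested for the line difference it left 4. The shares of all genes that passed are given above with these counts. Of the 70 pathway genes tested in A375 it left 29, 26 and 29 at 6, 24 and 48 h. It left 26 between 6 and 24 h and 1 between 24 and 48 h. Of all genes 31.6%, 29.5%, 31.3%, 28.2% and 1.49% passed in these comparisons. Of the 69 tested in 451Lu it left 19, 32 and 33 at 24, 72 and 120 h. It left 13 between 24 and 72 h and 4 between 72 and 120 h. Of all genes 17.1%, 31.7%, 41.1%, 12.8% and 3.97% passed there. Of the 73 tested in the joint fit it left 20 for the line difference and 33 on drug, against 17.6% and 45.6% of all genes. DESeq2 called 5 of the 9 genes tested between 24 and 72 h in 451Lu, where 8 are reported. Over all genes it called 5541 in that comparison, where 7126 are reported. Leaving out 1 library gave 5 to 7 there, with 5 without replicate 2 of the 24 h group and without replicate 1 of the 72 h group. IGFBP2, IRS1, IRS2 and PIK3IP1 were the genes whose 24 to 72 h call ended. The cause was not tested.

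The deviations of same-numbered libraries from their group means correlated at r -0.0577 to 0.0217 in A375 and -0.015 to 0.171 in 451Lu, over 6 pairs of groups each. In 451Lu the 3 pairs of off-drug groups had r 0.145, 0.171 and 0.169, and the 3 with the on-drug group were near 0. Since not every pair was above 0.1, the numbers were not taken to pair the libraries. They follow the letters B and C, which the sample titles repeat in every group, so a pairing by label remains possible. With the number as a block, the calls over all genes between 72 and 120 h in 451Lu went from 4531 to 5041. With the replicate number as a block, IGFBP2 in 451Lu at 72 h (0.76, adjusted p 0.0351) and IGF1R between 24 and 72 h (-0.15, adjusted p 0.0268) passed. With that block IRS1 between 6 and 24 h in A375 (-0.28, adjusted p 0.0568) and the on-drug difference of IGFBP5 (-0.49, adjusted p 0.0788) did not pass. The median of all genes moved by less than 0.1 under every scaling. Depth limits PIK3IP1 in both lines, IGFBP7 in A375 and IGFBP4 in 451Lu.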
